A study of Bos taurus with 20 samples.

Results

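Transcripts of 3 genes were examined in skeletal muscle, from the rows of the expression table with the bovine Ensembl identifiers of GHR, the growth hormone receptor (ENSBTAG00000001335), IGF1, insulin-like growth factor 1 (ENSBTAG00000011082), and IGF2, insulin-like growth factor 2 (ENSBTAG00000013066). The genes were chosen by identifier as the growth hormone receptor and the insulin-like growth factors, with earlier results of these data known. All 3 were among the 27607 genes listed and among the 12057 genes abundant enough to be tested. The table carries no gene symbols, so each symbol rests on its identifier and could not be checked against an annotation here.

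RNA was sequenced from skeletal muscle of 20 heifer calves, all crosses of Angus with Holstein-Friesian, with 1 library per calf. The 10 High plane calves had a daily allowance of 10 litres holding 1.5 kg of milk replacer and as much concentrate as they would eat for 8 weeks, followed by 11 weeks of unrestricted concentrates with hay. In the first phase the 10 Moderate plane calves had 4 litres holding 0.5 kg of milk replacer and 1 kg of concentrates per day. After it they had 1 kg of concentrates with hay. The regimes ran from 2 weeks of age and were set for gains of 1.2 and 0.5 kg per day. Muscle was taken at 21 weeks of age, while the regimes were still running. The labels do not name the muscle, and describe no group beside these. Markers of muscle fibres, fat, connective tissue, blood and liver were not analysed here, because the table gives no symbols by which to find them.

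Growth hormone from the pituitary binds GHR on the cell surface, and the receptor signals through the kinase JAK2 and the transcription factor STAT5. In liver and in muscle this raises transcription of IGF1, a small secreted protein related to insulin that acts through the IGF1 receptor and promotes protein synthesis and growth of muscle fibres. IGF2 is a close relative of IGF1 that acts through the same receptor, is cleared by a receptor of its own, and is best known as a fetal growth factor and as a factor made by differentiating muscle cells. In mammals including cattle IGF2 is imprinted, with the paternal copy the main source of its RNA. Feed supply is known to alter this axis in liver and blood. The comparison of the feeding planes addressed whether the transcripts of the axis within muscle differed with it.

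Values are scaled CPM, the reads of a gene per 1000000 reads of a library whose size was adjusted by TMM (trimmed mean of M values, which sets most genes near no difference between libraries). The libraries held 12280289 to 14123113 reads assigned to genes, and 1 read was worth 0.0673 to 0.111 scaled CPM. A pair of libraries, Moderate plane replicate 4 and High plane replicate 2, had the fewest genes read in their groups (15305 and 14800). The number of genes does not by itself set Moderate plane replicate 4 apart, since High plane replicates 4 and 1 had 15341 and 15345. In the pair, 12.4% and 15.1% of tested genes were over 2-fold off the mean of the other calves of the group. The other 18 libraries had 0.921 to 3.27%. The main results are therefore given with and without this pair, called the outlying pair here. Scaled CPM is not corrected for gene length, so levels are compared between calves and not between genes.

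IGF2 was lower in the muscle of High plane calves. Its level was 228 ± 64.1 scaled CPM on the High plane and 430 ± 118 on the Moderate plane (mean ± SD, n = 10 each). The lowest, median and highest High plane calves had 136, 224 and 365 scaled CPM, from 1741 to 4077 reads. The lowest, median and highest Moderate plane calves had 232, 451 and 602 scaled CPM, from 3361 to 8528 reads. The groups overlapped in part. Each of the 10 High plane calves had less than the Moderate plane median, and 8 of them had less than the lowest Moderate plane calf. Moderate plane replicates 10, 3 and 8, at 232, 292 and 348 scaled CPM, were the Moderate plane calves within the High plane range. High plane replicates 4 and 7, at 365 and 298, were the High plane calves that reached into the Moderate plane range. Of the 100 pairings of a High with a Moderate plane calf, the High plane calf had less IGF2 in 95.

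On the log2(scaled CPM + 1) scale, on which the fold of a gene at a low level is understated, the IGF2 difference was -0.90 ± 0.17 (SE; High minus Moderate plane; limma adjusted p = 0.00655). This is a 1.87-fold lower level on the High plane, with a 95% confidence interval of 1.46- to 2.40-fold. Feeding group accounted for 57.2% of the variance of the log2 level among the 20 calves. Across all genes tested, 0.995% were called lower on the High plane at an adjusted p below 0.05, and IGF2 was 23rd by p and 28th by size of change among these 120 genes. The median decrease among them was 0.66 on the log2 scale. On the recovered reads, edgeR's quasi-likelihood fit gave a 1.87-fold lower level (adjusted p = 0.00674). Without the outlying pair the log2 difference was -0.90 (limma adjusted p = 0.0125). In RNA from whole tissue, fewer cells of the type that makes a transcript and less of it per cell cannot be told apart.

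**Figure D1:**
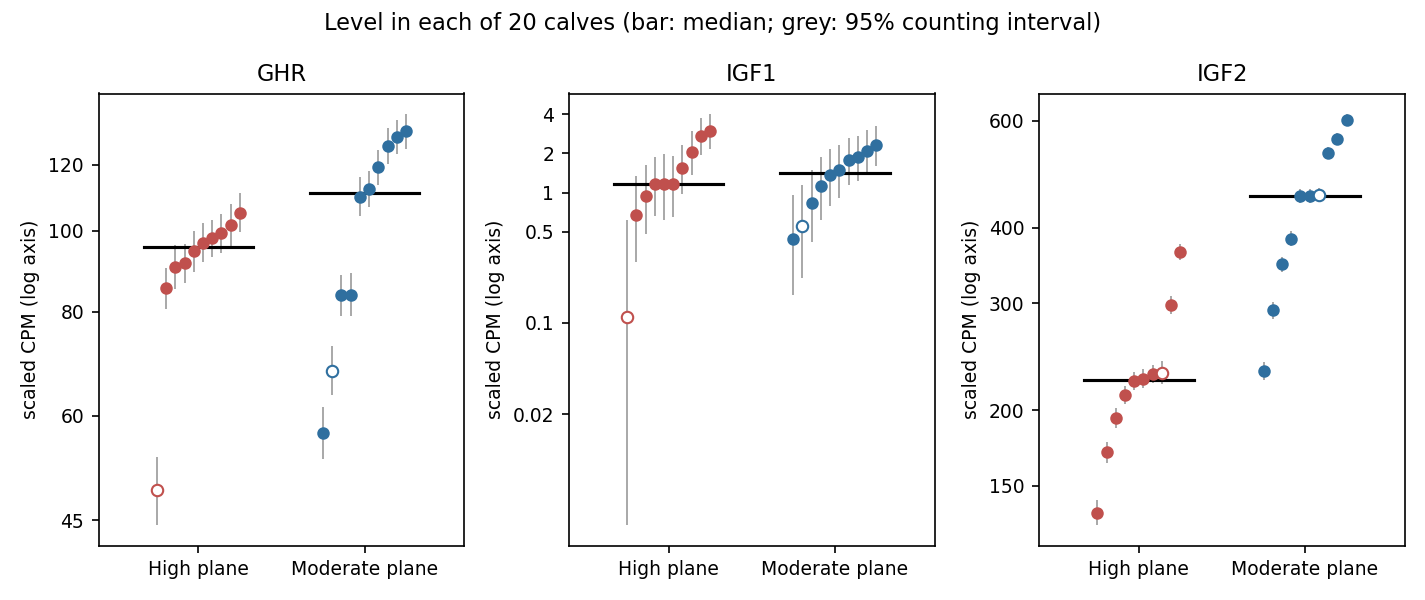
Level of GHR, IGF1 and IGF2 in scaled CPM on log axes, with 1 point per calf ordered by value within its group of 10, a black bar at the group median and a grey line for the 95% Poisson interval of the read count. Open circles mark the outlying pair. The IGF2 medians are 224 and 451 scaled CPM, whereas the GHR and IGF1 groups lie across each other.

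GHR, the receptor through which growth hormone acts on muscle, did not pass the test. Its level was 91.1 ± 15.9 scaled CPM on the High plane and 102 ± 26.9 on the Moderate plane (mean ± SD, n = 10 each). The lowest, median and highest High plane calves had 48.8, 95.6 and 105 scaled CPM, from 440 to 1455 reads. The lowest, median and highest Moderate plane calves had 57.2, 111 and 132 scaled CPM, from 758 to 1750 reads. The groups overlapped, but in an uneven way. Apart from High plane replicate 2, at 48.8, the High plane calves lay close together between 85.3 and 105 scaled CPM. No Moderate plane calf fell in that range, 4 having 57.2 to 83.8 and 6 having 110 to 132 scaled CPM. As with IGF2, each of the 10 High plane calves had less GHR than the Moderate plane median. Of the 100 pairings, though, the High plane calf had less GHR in only 64. The log2 difference was -0.14 ± 0.16 (SE; limma adjusted p = 0.740), with a 95% confidence interval from -0.46 to 0.19. The interval spans levels 1.38-fold lower to 1.14-fold higher on the High plane, so a moderate decrease or a small increase is within the error. Without High plane replicate 2 the log2 difference was -0.04 (limma adjusted p = 0.904), and without the outlying pair it was -0.10 (limma adjusted p = 0.715).

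IGF1, the growth factor that GHR signalling induces, was sparsely read in this muscle and did not pass the test. Its level was 1.45 ± 0.899 scaled CPM on the High plane and 1.38 ± 0.642 on the Moderate plane (mean ± SD, n = 10 each). The lowest, median and highest High plane calves had 0.111, 1.17 and 2.99 scaled CPM, from 1 to 44 reads. The lowest, median and highest Moderate plane calves had 0.444, 1.42 and 2.32 scaled CPM, from 6 to 34 reads. The Moderate plane calves lay wholly within the range of the High plane calves. The lowest value, in High plane replicate 2, was a single read, whose 95% Poisson interval is 0.00281 to 0.619 scaled CPM. The log2 difference was 0.00 ± 0.20 (SE; limma adjusted p = 0.998), with a 95% confidence interval from -0.42 to 0.42 on the log2(scaled CPM + 1) scale. The log2 difference without the outlying pair was 0.05 (limma adjusted p = 0.910). The sign of so small a difference carried no information and turned with the scaling and the pseudocount. By reads IGF1 lay at the 7.77th percentile of the genes tested, while 986 genes had more reads than GHR and 237 more than IGF2. This ranks the precision of their counts and not their molecules, since reads are not corrected for length.

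**Figure D2:**
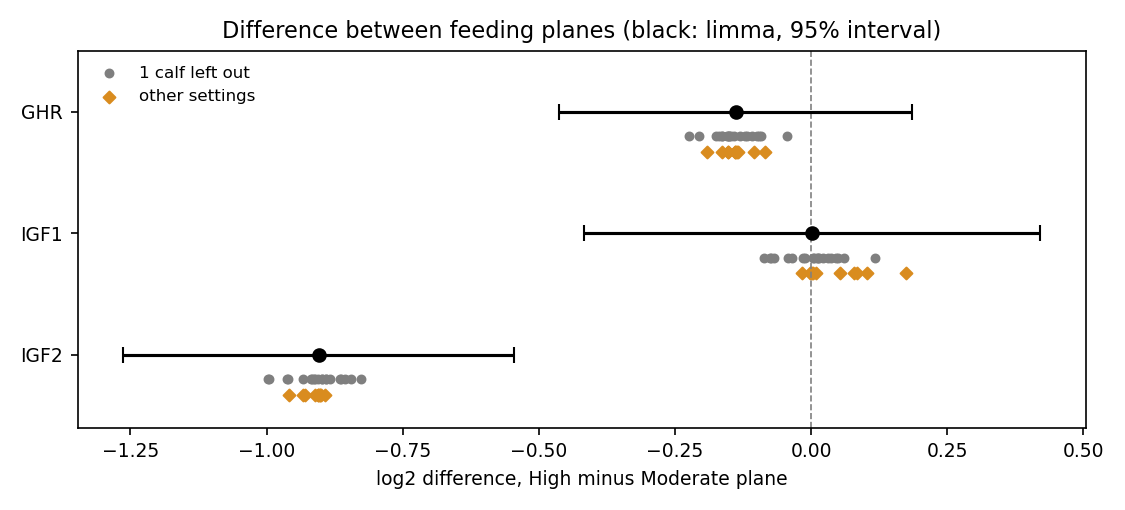
Log2 difference of GHR, IGF1 and IGF2, High minus Moderate plane, on log2(scaled CPM + 1). Black points and bars are limma estimates with 95% confidence intervals over 20 calves; grey points leave out 1 calf each and orange diamonds use other settings. The IGF2 interval, -1.26 to -0.55, lies below 0, and those of GHR and IGF1 include 0.

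Of the 3 genes, 1 was called, against 2.14% of all genes tested called in either direction by limma and 2.59% by the edgeR quasi-likelihood test. The median log2 difference over all tested genes was 0.01. With 3 genes chosen by hand, and with earlier results of these data known, this count describes these genes and not the pathway. The receptors IGF1R and IGF2R, the binding proteins and the downstream kinases were not analysed here, again for want of symbols.

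**Figure D3:**
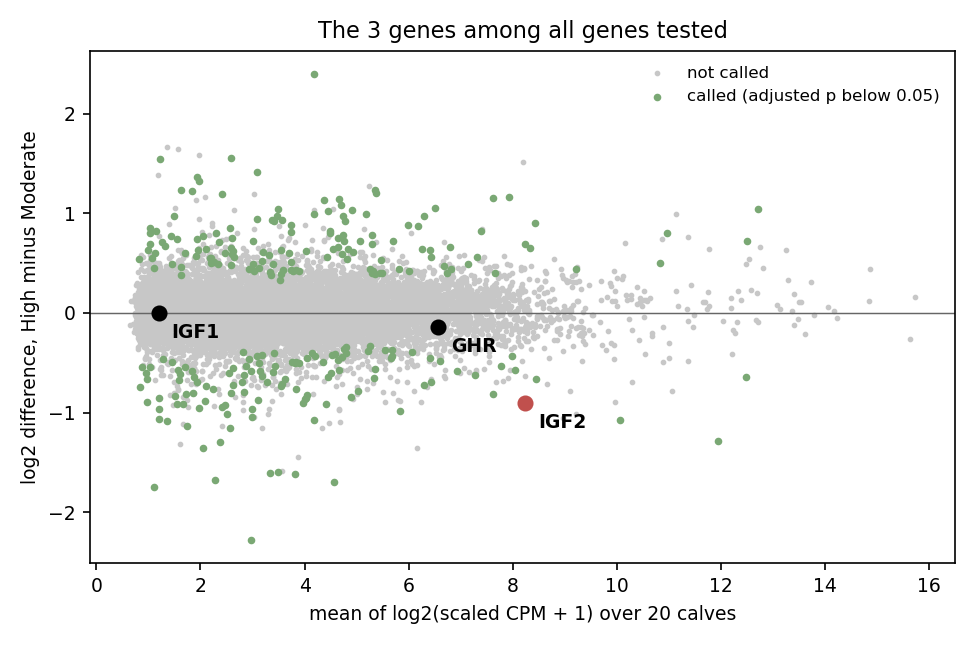
Each of the 12057 genes tested by its mean log2(scaled CPM + 1) over 20 calves and its log2 difference, High minus Moderate plane; green points have a limma adjusted p below 0.05. IGF2, at a log2 difference of -0.90, lies with the called genes, and GHR and IGF1 lie within the band of genes not called.

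The ratio of 2 genes within a library does not depend on how libraries were scaled, and was used to compare their changes. The ratio of IGF2 to GHR reads was lower on the High plane. Its lowest, median and highest values were 1.44, 2.21 and 4.72 in High plane calves, and 1.95, 4.69 and 6.69 in Moderate plane calves. The groups overlapped, with 5 Moderate plane calves above the highest High plane calf. The mean log2 ratio was 1.30 ± 0.51 on the High plane and 2.07 ± 0.64 on the Moderate plane (SD, n = 10 each), a difference of -0.77 (two-sided permutation test, p = 0.0100, adjusted p = 0.0300 over the 3 ratios). The difference without the outlying pair was -0.80 (exact permutation p = 0.00753, adjusted p = 0.0226). Since IGF2 alone passed its test, this ratio describes the same difference against GHR as the reference. Its adjusted p lay between 0.0509 and 0.0582 when High plane replicate 1, 3 or 10 or Moderate plane replicate 1, 4, 7, 8 or 9 was left out (exact permutation tests).

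The ratio of IGF1 to IGF2 reads was 0.00660 in the median High plane calf and 0.00312 in the median Moderate plane calf. The difference in mean log2 ratio was 0.77 and did not pass (permutation p = 0.190, adjusted p = 0.284). Its call turned on High plane replicate 2, the library with 1 IGF1 read. Without High plane replicate 2 the difference was 1.15 (exact permutation p = 0.0190, adjusted p = 0.0284), and without the outlying pair it was 1.00 (exact permutation p = 0.0348, adjusted p = 0.0522). The mean log2 ratio of IGF1 to GHR reads was -6.33 in both groups (difference 0.00, permutation p = 0.996, adjusted p = 0.996).

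The 3 genes differed in how much they varied between calves of a group. IGF2 had a coefficient of variation of 28.1% on the High plane and 27.4% on the Moderate plane. Counting error alone would give 1.88% and 1.32%, so nearly all of the spread was between calves or libraries. GHR varied by 17.5% and 26.3%, against 2.92% and 2.71% from counting. IGF1 varied by 61.9% and 46.4%, against 22.5% and 23.1% from counting, which made up 13.2% and 24.8% of its variance. On the log2 scale the SD within groups was 0.37 for GHR, 0.49 for IGF1 and 0.41 for IGF2, and the median over all genes tested was 0.32. These lay at the 65.8th, 86.2nd and 75.4th percentiles of all genes tested. In the edgeR model, which takes counting error out, the biological coefficient of variation was 24.6% for GHR and 27.7% for IGF2, where genes of their abundance lay at 25.3% and 26.0%. For IGF1 it was 50.0%, where genes of its abundance lay at 35.0%. The model draws each gene's value toward that of genes of its abundance, so closeness between them is in part built in.

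The difference in spread between the feeding planes passed for 0 of the 3 genes after adjustment. The mean absolute deviation of GHR from the group median was 0.16 on the High plane and 0.32 on the Moderate plane on the log2 scale (permutation p = 0.229, adjusted p = 0.670 over 3 genes). Without the outlying pair the difference in this deviation was -0.21 (exact permutation p = 0.0228, adjusted p = 0.0684). With library totals in place of TMM, over all 20 calves, it was -0.07 (permutation p = 0.725, adjusted p = 0.725). For IGF2 the deviations were 0.26 and 0.32 (adjusted p = 0.670), and for IGF1 0.39 and 0.33 (adjusted p = 0.670, permutation tests). These tests do not show that the spreads were alike.

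With TMM scaling, levels of the 3 genes were not shown to move together over the 20 calves. After each group's mean was subtracted, IGF1 and GHR had a Pearson r of 0.41 over 20 calves (permutation p = 0.0722, adjusted p = 0.217 over 3 pairs) and a Spearman rho of 0.16 (permutation p = 0.486, adjusted p = 0.595). This relation turned on the scaling and on few libraries. With library totals in place of TMM, r was 0.60 (permutation p = 0.00685, adjusted p = 0.0205), and without Moderate plane replicate 2 it was 0.55 (permutation p = 0.0130, adjusted p = 0.0389). Without High plane replicates 2 and 10, the 2 calves farthest from the median of IGF1, r was 0.18 (permutation p = 0.527). Without the outlying pair, both low in GHR and IGF1, r was -0.02 (permutation p = 0.950). Within the High plane alone r was 0.56 (rho 0.05; permutation p = 0.119 and 0.892; n = 10). In the High plane group r turned to -0.38 without the same 2 calves (permutation p = 0.350). Within the Moderate plane alone it was 0.29 (rho 0.19; permutation p = 0.418 and 0.608; n = 10).

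No relation of IGF2 to the receptor or to IGF1 passed the test. Its r with GHR was -0.07 (rho -0.13; permutation p = 0.772 and 0.595; adjusted p = 0.772 and 0.595; n = 20). It was 0.06 without the 2 calves farthest from the median of IGF2, -0.03 without the outlying pair, 0.00 within the High plane and -0.12 within the Moderate plane. The r of IGF1 with IGF2 was -0.19 (rho -0.25; permutation p = 0.417 and 0.291; adjusted p = 0.625 and 0.595; n = 20). It was -0.13 without the 2 calves farthest from the median of IGF1, -0.19 without the outlying pair, -0.27 within the High plane and -0.11 within the Moderate plane. With library totals both turned positive, to 0.21 for IGF2 with GHR (permutation p = 0.379, adjusted p = 0.495) and 0.16 for IGF1 with IGF2 (permutation p = 0.495, adjusted p = 0.495). Counting error made up 13.2% and 24.8% of the variance of IGF1 in scaled CPM on the High and Moderate planes. Its share was not computed on the log2 scale of these relations, and its part in them was not tested.

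**Figure D4:**
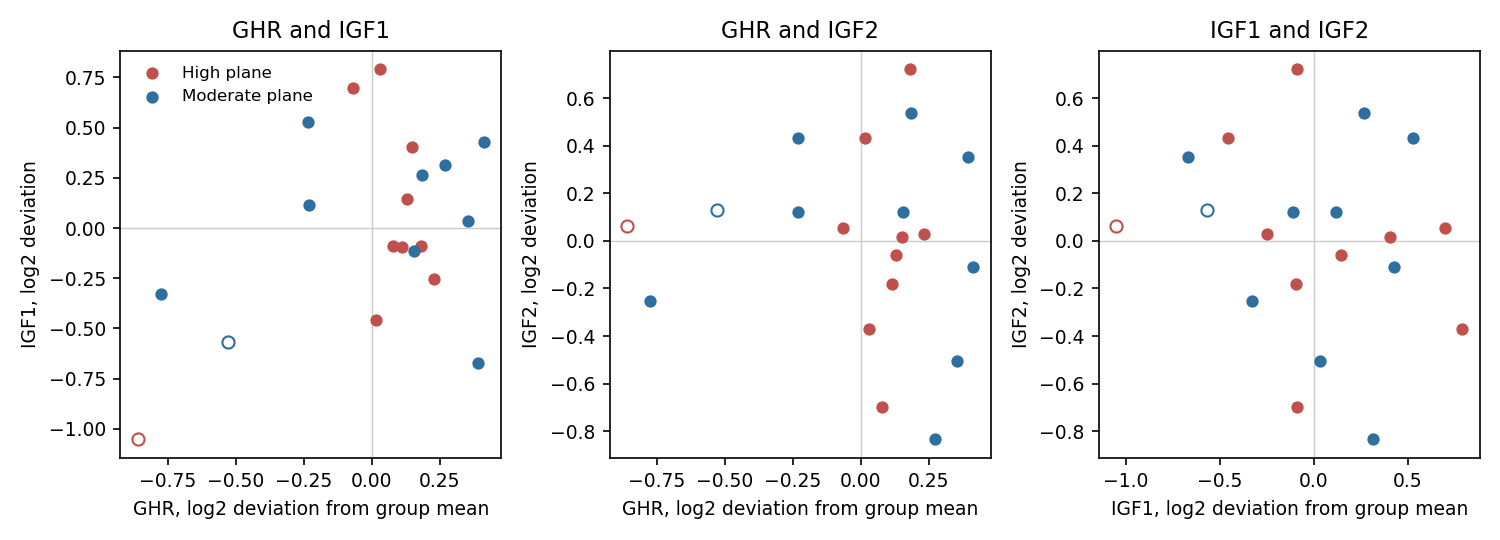
Deviations of log2(scaled CPM + 1) from the group mean for each pair of genes, with 1 point per calf (red, High plane; blue, Moderate plane; open, the outlying pair). The open points lie at the low end of GHR and IGF1 and near the middle of IGF2; over all 20 calves r is 0.41, -0.07 and -0.19 from left to right.

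Both measures of the library moved with IGF1; the share of reads in the top genes moved with GHR by Pearson's r alone, and no such relation passed for IGF2. The share of a library's reads in its 20 top genes by abundance ranged from 33.1% to 47.3%, highest in High plane replicate 2. Within groups, IGF1 fell as this share rose (r = -0.71, rho = -0.71; permutation p = 0.00105 and 0.00111; adjusted p = 0.00315 and 0.00666 over 6 relations; n = 20). Its r was -0.48 without the 2 calves of most extreme share, and -0.53 without the outlying pair. IGF1 also rose with the number of genes with a read (r = 0.75, rho = 0.65; permutation p = 3.70e-04 and 0.00316; adjusted p = 0.00222 and 0.00948). That r was 0.58 without the 2 most extreme calves, which here were the outlying pair. GHR had an r of -0.62 with the share (permutation p = 0.00251, adjusted p = 0.00502) but a rho of -0.25 (permutation p = 0.250, adjusted p = 0.374), and its r was -0.43 without the 2 extreme calves and -0.32 without the outlying pair. Its r with the number of genes with a read was 0.35 (rho -0.03; permutation p = 0.116 and 0.905; adjusted p = 0.174 and 0.905), and turned to -0.25 without the outlying pair. IGF2 had an r of 0.28 with the share (rho 0.33; permutation p = 0.233 and 0.154; adjusted p = 0.280 and 0.308) and 0.01 with the number of genes (permutation p = 0.950, adjusted p = 0.950). With the share as a covariate in limma, the IGF2 log2 difference was -0.93 (adjusted p = 0.00294), that of GHR -0.08 (adjusted p = 0.773) and that of IGF1 0.08 (adjusted p = 0.813). The part of the library measures in the IGF1 and GHR levels was not tested further.

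**Figure D5:**
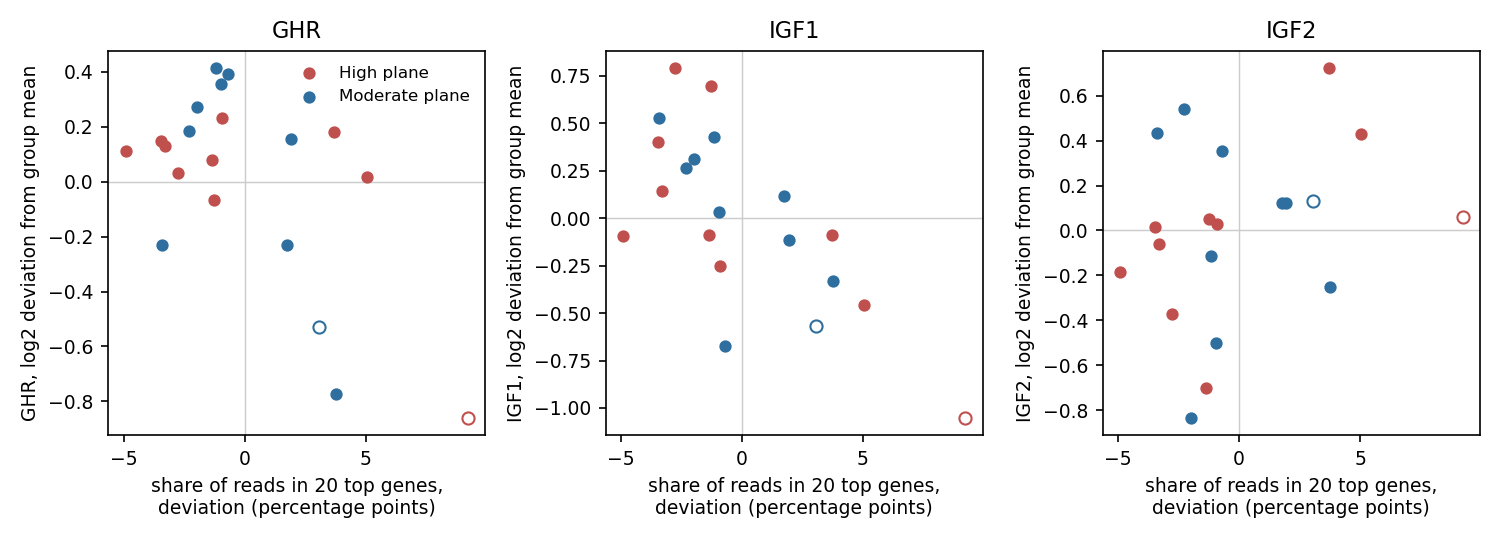
Deviation of each gene's log2(scaled CPM + 1) from its group mean against the deviation of the share of reads in the library's 20 top genes, in percentage points, with 1 point per calf (red, High plane; blue, Moderate plane; open, the outlying pair). IGF1 declines along the axis with r = -0.71, GHR has r = -0.62 with a weak rank relation, and IGF2 has r = 0.28.

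The genes also differed in how many other transcripts followed them. After group means were subtracted, 759 of the 12056 other tested genes had an r above 0.7 with GHR over 20 calves, and 353 with IGF1. For IGF2 the number was 6. An r below -0.7 was found for 283 genes with GHR, 491 with IGF1 and 5 with IGF2. Without the outlying pair the numbers above 0.7 were 154, 113 and 24, so much of the breadth for GHR and IGF1 rested on that pair. The numbers below -0.7 were not counted without it. Such counts were not made for other genes, so the number usual for a tested gene is not known here. The highest r was 0.89 for GHR, 0.90 for IGF1 and 0.79 for IGF2. The gene most like any of the 3 was ENSBTAG00000000827, whose r with IGF1 was 0.90, or 0.86 without the outlying pair. It is named by identifier only, and its level was 3.49 ± 1.63 scaled CPM on the High plane and 4.47 ± 1.89 on the Moderate plane (SD, n = 10 each; limma adjusted p = 0.590). These correlations describe 20 libraries that share their scaling, and no p is attached to them.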

How the data were processed

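One table of gene values for 20 muscle libraries was used. Tools named in the submitters' processing notes are STAR 2.6.1, edgeR 3.5, R 3.4, cutadapt 2.6 and FastQC 0.11.8, with the build ARS-UCD1.2. The counting of reads, its annotation and its strand setting are, however, details not given in the sources used here. Values as deposited are a signal, scaled CPM, which the values themselves show to be read counts divided by a TMM-scaled library size and multiplied by 1000000. All values (100%, within 0.01 of a read) were whole multiples of 1 read, and the reads were recovered. A gene at 0 may have reached 0.202 to 0.333 scaled CPM (3 reads); floors and intervals cover counting error only. In RefSeq's ARS-UCD2.0 annotation a long noncoding RNA overlaps GHR and another overlaps IGF1, and a microRNA gene lies in IGF2; with the strand setting unknown, their reads cannot be told apart. That table pairs 0 of the identifiers with symbols.

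Genes were kept by edgeR's filterByExpr (4.0.16, minimum count 10). Groups were compared with limma (3.58.1 under R 4.3.3, trended prior variance) on log2(scaled CPM + 1), group as the only term, two-sided, with Benjamini-Hochberg adjustment over all genes tested. edgeR's quasi-likelihood test on the recovered reads, which called 312 genes against 258 by limma, DESeq2 1.42.0, other scalings, pseudocounts and filters, and leaving out each calf were alternatives. Single values were tested by permuting calves (100000 resamples, or exact with fewer than 10 calves in a group; scipy 1.17.1 and numpy 2.4.6). Correlations were permuted within groups. The fit was tested on simulated data for the comparison of the planes over 12057 genes. It recovered 45% of 60 genes changed 1.5-fold and 78.1% of 73 changed 2-fold. Genes were simulated independently of each other, so the simulation held no outlying libraries. Its rates average over genes of all abundances and do not describe IGF1 alone. Besides the 3 genes, the rule for naming allowed the single identifier most correlated with any of them. The genes, lists and tests were chosen with earlier results of these data known, and the correlations with library measures were added after the data were seen. Each library is a separate calf per the labels, with replicate numbers given in accession order. Lists of pathway and cell type genes were not used, for want of symbols.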

Additional observations from a re-analysis of the deposited data

Results flagged for a closer look

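The GHR level of High plane replicate 2, 48.8 scaled CPM, lay far below the other High plane calves, of which the next lowest had 85.3. The gap was 0.727 of the group's whole range on the log2(scaled CPM + 1) scale. Among 12 sets of 10 values checked (3 genes and 3 ratios in both groups), this was the only value picked out, and chance picks out about 1 set in 20. The same library had the lowest IGF1 level, 0.111 scaled CPM from 1 read, and an IGF2 level of 230 scaled CPM, near the High plane median of 224. It also had the highest share of reads taken by its 20 top genes, 47.3%. The part of that share in the GHR value was not tested.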

How the results depend on the processing

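IGF2 stayed lower on the High plane and past the threshold under 11 other settings and with each of the 20 calves left out. Its log2 difference was -0.96 to -0.89 over the settings (highest adjusted p 0.0142, with no filter) and -0.997 to -0.827 with 1 calf left out (highest adjusted p 0.0167). GHR passed in none, at -0.19 to -0.08 and, with 1 calf left out, -0.22 to -0.04. IGF1 passed in none and changed sign. Over the settings its log2 difference was -0.016 to 0.175, the highest with voom and weighted libraries. It was below 0 in 3 of them, at -0.016 with a pseudocount of 0.5, -0.0019 with DESeq2 size factors and -0.00034 with upper quartile scaling. The edgeR quasi-likelihood fit gave 0.102 and the DESeq2 Wald fit 0.078. With 1 calf left out it was -0.086 to 0.118.

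With library totals in place of TMM, r of IGF1 with GHR was 0.60 (permutation p = 0.00685, adjusted p = 0.0205), r of IGF2 with GHR was 0.21 and r of IGF1 with IGF2 was 0.16; the cause was not tested. Without the outlying pair, r of IGF1 with GHR was -0.016, and without subtracting group means, r of IGF2 with GHR was 0.10. With 1 calf left out, the r of IGF1 with GHR was 0.14 to 0.55 (the highest without Moderate plane replicate 2, permutation p = 0.0130, adjusted p = 0.0389), and that of IGF2 with GHR was -0.18 to 0.022. The log2 ratio differences with 1 calf left out were 0.57 to 1.15 for IGF1 to IGF2, -0.20 to 0.27 for IGF1 to GHR and -0.89 to -0.68 for IGF2 to GHR.

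Genes called higher and lower numbered 138 and 120, and other fits gave 294 and 293 (DESeq2, Wald), 358 and 267 (voom, weighted libraries), 291 and 240 (covariate for the reads of the 20 top genes) and 224 and 190 (outlying pair left out). They numbered 80 to 202 and 62 to 203 with 1 calf left out. The number higher or lower moved by over 1.5 times without High plane replicate 2, 4, 5, 6, 7 or 9 or Moderate plane replicate 2. No paired analysis was possible because the replicate numbers only name calves. The number of reads limits IGF1.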
